A study of Gallus gallus with 9 samples.

Results

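Granulosa cells of the largest preovulatory follicle (F1) of 3 hens killed at ZT20, the stage of the luteinizing hormone (LH) surge (5:00 a.m.), were compared with those of 3 other hens killed at ZT0 (9:00 a.m.), which stands 20 h earlier on the time scale of the study. These 6 libraries were chosen from the 9 of the series by the stage in their labels, and 3 libraries of ZT12 (9:00 p.m.) enter only the shared estimate of the spread and, for some genes, a context value. All hens were Rohman layers of 210 days, untreated, selected for regular egg laying and assigned to the stages at random. The RNA was total RNA depleted of ribosomal RNA. Each library came from 1 hen, and no hen was sampled at both stages, so each difference is between hens. LH level, clock time and the age of the follicle differ together between ZT20 and ZT0 and cannot be told apart.

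Granulosa cells surround the yolk-filled oocyte of the follicle. In the hen the F1 follicle is the next to ovulate, and its granulosa layer is the main source of the progesterone that rises with the LH surge. LH acts on these cells through a G protein-coupled receptor and cAMP, and the delivery of cholesterol into mitochondria by STAR, the steroidogenic acute regulatory protein, is a rate-limiting step of progesterone synthesis. In birds the granulosa cells also make ZP3, a protein of the egg coat.

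The values analysed were TPM, a level scaled by transcript length and by library, of 12479 mRNAs and 7528 lncRNAs (transcripts with no coding potential by the filters of the authors). The study reports the raw reads of each library, but TPM values do not tell how many reads a transcript had, so no counting interval is given. Both tables together summed to 977047 to 979691 TPM in the ZT20 libraries and 980372 to 983179 TPM in the ZT0 libraries. The median mRNA had 10.6 to 11.9 TPM at ZT20 and 13.6 to 15.2 TPM at ZT0. Of 12 granulosa markers listed, 5 could be paired with an identifier, and their summed level was 10644 to 16579 TPM at ZT20, against 1847 to 2856 TPM at ZT0, most of it STAR. STAR and SOX9 were called higher, SOX9 with a mean of only 1.31 TPM at ZT20. NR5A1 and NR5A2 were called lower, and PRLR was not called. Of 16 listed markers of theca and smooth muscle, 6 were paired. They summed to 19.2 to 20.9 TPM at ZT20, against 9.31 to 13.5 TPM at ZT0. LDB3 was called higher, MYOCD lower and 4 were not called. MYOCD had only 0.598, 0.411 and 2.99 TPM at ZT0, and its call was lost after median ratio scaling (log2 fold change -0.93). Of 8 listed endothelial markers, 3 were paired. They summed to 16.4 to 20.1 TPM at ZT20, against 40.5 to 90.6 TPM at ZT0. Most of the endothelial sum at ZT0 was CLDN5, which was called lower, as was S1PR1, while SH2D3C was called higher, with 10.5 ± 2.26 TPM at ZT20 and 0.445 ± 0.195 TPM at ZT0 (SD, n = 3 each). The 11 leukocyte markers summed to 165 to 218 TPM at ZT20, against 262 to 298 TPM at ZT0. Most of that sum was FYB, while PTPRC, which marks all leukocytes, stayed under 1 TPM in all 6 libraries. Of 6 listed oocyte markers, 4 were paired. They summed to 19.9 to 33.7 TPM at ZT20, against 34.9 to 55.7 TPM at ZT0, with PIWIL1 called higher and GDF3 lower. No erythrocyte marker was paired. Sums over part of a marker list do not measure the share of that cell type. In such bulk samples, fewer cells of a type and less RNA per cell cannot be told apart.

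The stages differed in mRNAs at every level, from transcripts near 0 to the most abundant ones. Differences were tested with limma on log2(TPM + 1), and an mRNA was called higher or lower when its absolute log2 fold change was above 1 and its Benjamini-Hochberg adjusted p was under 0.05, the thresholds of the study. On this scale the change of a transcript with low TPM comes out too small. Of 12472 mRNAs tested, 3512 (28.2%) were called, 1442 (11.6%) higher and 2070 (16.6%) lower at ZT20. Past an absolute log2 fold change of 2 were 605 higher and 682 lower mRNAs, past 3 were 270 higher and 239 lower, and past 5 were 54 higher and 24 lower. Lower calls were thus the more numerous past 2, and higher calls past 3 and past 5. The ZT20 and ZT0 libraries did not overlap for 7749 mRNAs (62.1%). Among mRNAs with a mean of at least 100 TPM over both stages, 249 of 1216 were called higher and 189 lower, and among those between 10 and 100 TPM, 650 of 5974 were called higher and 1064 lower.

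The surplus of lower calls depended on the scaling. The median log2 fold change of all mRNAs was -0.19, and after each library was scaled to the same median ratio it was 0.00. That scaling gave 3293 calls, 1729 (13.9%) higher and 1564 (12.5%) lower, and 3006 mRNAs were called in both. Of the calls, 41.1% were thus higher at ZT20 with TPM and 52.5% after median ratio scaling. A log2 fold change below is best read beside the median of -0.19, and a gene is said to rise or fall only where it passed the test on TPM.

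**Figure D1:**
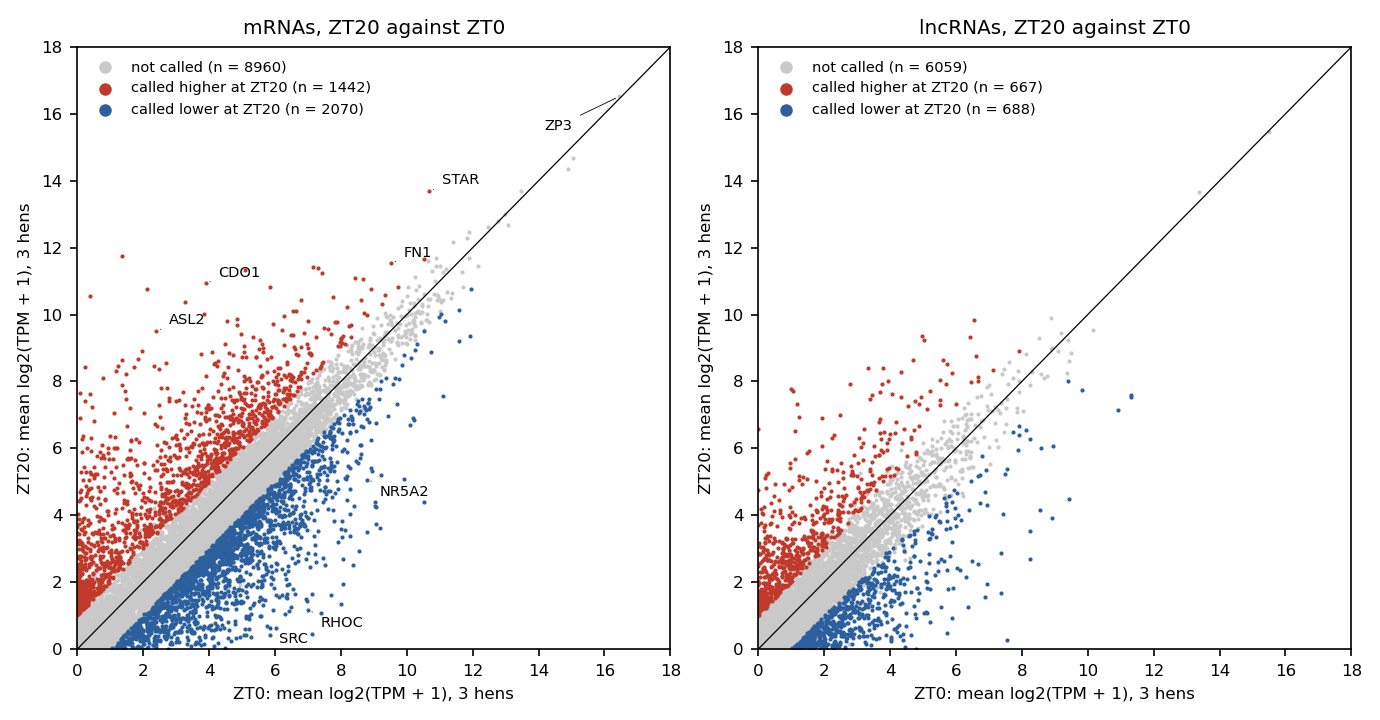
Mean log2(TPM + 1) of each mRNA (left panel) and each lncRNA (right panel) at ZT20 on the vertical axis against ZT0 on the horizontal axis, 3 hens each, with the line of equal level. Red points were called higher at ZT20 (1442 mRNAs and 667 lncRNAs), blue points lower (2070 mRNAs and 688 lncRNAs), and ZP3 lies near the line while STAR lies above it.

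Gene symbols came from the part of the study's transcript list used here and were paired for 1823 of the tested mRNAs. Of these, 474 (26.0%) were called, 198 (10.9%) higher and 276 (15.1%) lower, and 1165 (63.9%) did not overlap between the stages. Among these, the largest rise was that of ASL2, which encodes argininosuccinate lyase and is known in the chicken as a delta-crystallin gene. ASL2 had 656, 890.1 and 673 TPM at ZT20, against 4.20, 8.50 and 1.97 TPM at ZT0 (limma, Benjamini-Hochberg, log2 fold change 7.12 ± 0.34, adjusted p = 1.12e-07). Log2 fold changes are given ± SE here and below. CDO1, which oxidises cysteine to its sulfinic acid on the way to taurine, had 1985, 1794 and 2162 TPM at ZT20, against 10.2, 27.5 and 9.54 TPM at ZT0 (log2 fold change 7.04 ± 0.34). In both genes the lowest ZT20 hen stood far above the highest ZT0 hen. IPMK, an inositol phosphate kinase, reached 357, 411 and 468 TPM at ZT20, against 2.90, 4.93 and 0.987 TPM at ZT0 (log2 fold change 6.84 ± 0.34). SLC6A17, a transporter of neutral amino acids, had 224, 139.7 and 111 TPM at ZT20, against 0.354, 0.743 and 0.0790 TPM at ZT0 (log2 fold change 6.80 ± 0.27).

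The other genes of this kind included several that act at the cell surface or outside the cell. ARL10, a small GTPase of the ARF-like family, had 401, 279 and 314 TPM at ZT20, against 5.08, 3.58 and 5.12 TPM at ZT0 (log2 fold change 5.89 ± 0.24). HS6ST1, which sulfates heparan sulfate chains, had 179, 244 and 256 TPM at ZT20, against 1.88, 4.69 and 10.7 TPM at ZT0 (log2 fold change 5.28 ± 0.48). TSKU, the secreted protein tsukushi that binds several growth factors, had 91.1, 68.3 and 84.6 TPM at ZT20, against 0.733, 3.56 and 0.407 TPM at ZT0 (log2 fold change 5.20 ± 0.45). HVCN1 encodes a voltage-gated proton channel and TTYH3 a member of the tweety family of membrane proteins. HVCN1 had 413, 543 and 404 TPM at ZT20, against 9.70, 7.53 and 25.3 TPM at ZT0 (log2 fold change 5.07 ± 0.35), and TTYH3 had 877, 761 and 832 TPM at ZT20, against 19.5, 28.7 and 38.04 TPM at ZT0 (log2 fold change 4.84 ± 0.41). FNDC5, the precursor of irisin, had 20.6, 54.2 and 44.99 TPM at ZT20, against 0.461, 0.306 and 0.233 TPM at ZT0 (log2 fold change 4.84 ± 0.31). The ligand WNT7A had 79.1, 47.6 and 33.0 TPM at ZT20, against 0.956, 0.525 and 1.46 TPM at ZT0 (log2 fold change 4.71 ± 0.30), and B3GAT1, a glucuronyltransferase, had 36.03, 35.3 and 27.1 TPM at ZT20, against 0.113, 0.823 and 0.0550 TPM at ZT0 (log2 fold change 4.70 ± 0.23). SHCBP1, which binds the adaptor SHC1 and is found at the spindle, had 46.03, 38.9 and 43.8 TPM at ZT20, against 0.223, 0.576 and 0.505 TPM at ZT0 (log2 fold change 4.94 ± 0.17). CRABP-I, a cellular retinoic acid binding protein, varied most among the ZT20 hens, with 73.8, 12.05 and 25.6 TPM at ZT20, against 0.454, 0.220 and 0 TPM at ZT0 (log2 fold change 4.61 ± 0.49). The groups did not overlap for any of these 14 genes, which the rule for naming required.

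Among mRNAs with a symbol, RHOC had the largest fall. RHOC, a small GTPase that acts on actin, had 2.10, 1.55 and 0.408 TPM at ZT20, against 119, 117 and 148 TPM at ZT0 (limma, log2 fold change -5.84 ± 0.26, adjusted p = 6.75e-08). The tyrosine kinase SRC had 0.598, 0.871 and 0.383 TPM at ZT20, against 45.4, 56.04 and 57.9 TPM at ZT0 (log2 fold change -5.07 ± 0.18), and no ZT20 library reached 1 TPM. TRAF4, an adaptor of TNF receptor and TGF-beta signalling, had 1.76, 1.81 and 3.06 TPM at ZT20, against 61.8, 137 and 106 TPM at ZT0 (log2 fold change -4.95 ± 0.27). PPP1R12B is a subunit of myosin phosphatase and had 2.77, 3.19 and 1.73 TPM at ZT20, against 79.4, 94.7 and 103 TPM at ZT0 (log2 fold change -4.73 ± 0.18). MAP2K6, which activates p38 kinases, had 0.884, 1.15 and 0.560 TPM at ZT20, against 33.1, 32.4 and 44.2 TPM at ZT0 (log2 fold change -4.33 ± 0.19). PLCG1, the phospholipase C that receptor tyrosine kinases activate, had 1.20, 0.923 and 0.800 TPM at ZT20, against 28.2, 38.2 and 42.6 TPM at ZT0 (log2 fold change -4.23 ± 0.25). SRC, MAP2K6 and PLCG1 thus all lay near 1 TPM at ZT20. PPM1J, a serine and threonine phosphatase, had 0.595, 0.713 and 0.950 TPM at ZT20, against 18.2, 22.8 and 27.9 TPM at ZT0 (log2 fold change -3.76 ± 0.18).

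SKP2, the substrate-binding part of a ubiquitin ligase that promotes entry into S phase, had 33.4, 33.5 and 42.4 TPM at ZT20, against 548, 574 and 664 TPM at ZT0 (log2 fold change -4.00 ± 0.15). CRIP1, a small LIM domain protein, had 11.9, 16.9 and 18.1 TPM at ZT20, against 312, 287 and 325 TPM at ZT0 (log2 fold change -4.23 ± 0.36). KCNJ5, a G protein-gated potassium channel, had 0.839, 2.01 and 1.82 TPM at ZT20, against 48.6, 41.2 and 57.8 TPM at ZT0 (log2 fold change -4.31 ± 0.93, adjusted p = 0.00299 by limma), the weakest test of the 14, and its ZT12 libraries ranged from 0.405 to 27.9 TPM. PLEKHF1, which binds phosphoinositides, had 2.47, 3.39 and 1.88 TPM at ZT20, against 67.8, 60.4 and 57.5 TPM at ZT0 (log2 fold change -4.15 ± 0.17). The level of LHFPL2, a membrane protein, was 1.52, 0.825 and 0.713 TPM at ZT20, against 34.3, 31.8 and 35.01 TPM at ZT0 (log2 fold change -4.12 ± 0.17). WSCD2 had 1.52, 0.542 and 1.04 TPM at ZT20, against 54.2, 44.9 and 40.5 TPM at ZT0 (log2 fold change -4.57 ± 0.20), and the zinc finger gene ZNF608 had 2.34, 1.52 and 2.06 TPM at ZT20, against 40.9, 44.9 and 51.6 TPM at ZT0 (log2 fold change -3.98 ± 0.19). Each of these 28 rises and falls was also called under all 20 alternative settings.

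**Figure D2:**
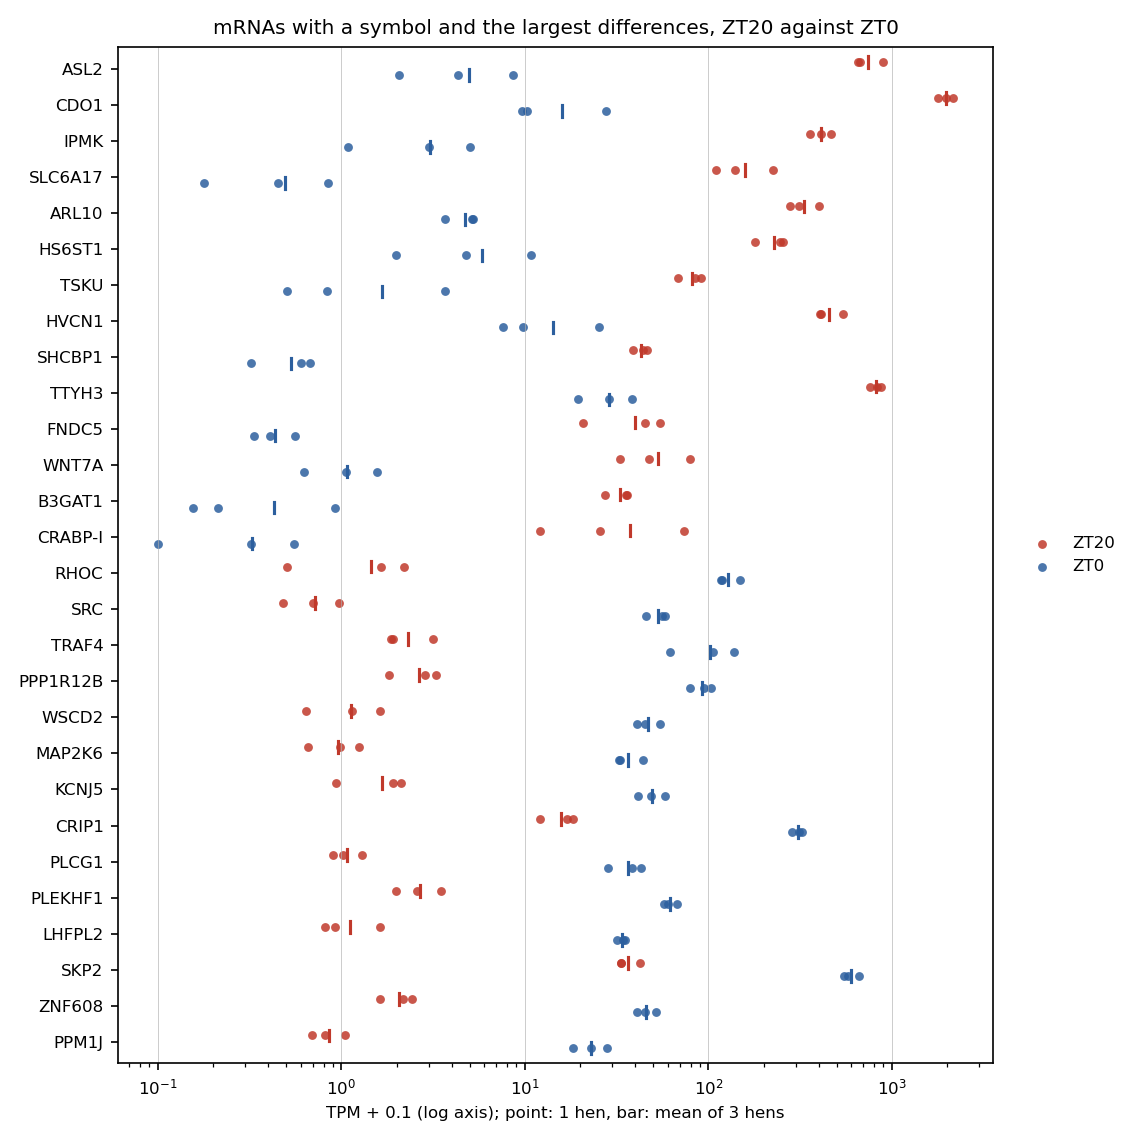
Level of the 28 mRNAs with a symbol and the largest differences in each hen, as TPM + 0.1 on a log axis, with ZT20 in red above ZT0 in blue for each gene and a bar at the mean of 3 hens. The 14 genes from ASL2 to CRABP-I are higher at ZT20 and the 14 from RHOC to PPM1J lower, with no overlap of hens.

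Some transcripts were near 0 at one stage only. Of all mRNAs, 60 were above 10 TPM in every ZT20 library and under 1 TPM in every ZT0 library, and 36 were under 1 TPM in every ZT20 library and above 10 TPM in every ZT0 library. SLC6A17, SHCBP1, FNDC5, CRABP-I and B3GAT1 were among the 60. SRC and PPM1J were among the 36, with AQP3, a channel for water and glycerol, and RFX2, a transcription factor of ciliated cells. AQP3 had 0.889, 0.595 and 0.695 TPM at ZT20, against 25.0, 15.2 and 12.9 TPM at ZT0, and RFX2 had 0.379, 0.746 and 0.492 TPM at ZT20, against 13.05, 13.9 and 12.6 TPM at ZT0. Symbols covered only a part of the study's transcript list, so an mRNA with no symbol here may have one elsewhere. Some mRNAs with no symbol here held larger differences than any with a symbol. ENSGALG00000033535 had 3593, 3256 and 3538 TPM at ZT20, against 0.907, 1.86 and 2.03 TPM at ZT0 (log2 fold change 10.41 ± 0.18) and ENSGALG00000040355 had 1242, 1475 and 1882 TPM at ZT20, against 0.256, 0.297 and 0.333 TPM at ZT0 (log2 fold change 10.19 ± 0.18). ENSGALG00000010806 had 0.533, 0.204 and 0.349 TPM at ZT20, against 152, 141 and 128 TPM at ZT0 (log2 fold change -6.70 ± 0.15), and ENSGALG00000037402 had 0.845, 2.98 and 1.26 TPM at ZT20, against 250.0, 275 and 243 TPM at ZT0 (log2 fold change -6.65 ± 0.31).

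The most abundant mRNA was the same at both stages. ZP3 had 91886, 84106 and 108101 TPM at ZT20, against 85076, 93193 and 91877 TPM at ZT0, the highest level of all mRNAs at either stage, and was not called (limma, log2 fold change 0.07 ± 0.45, adjusted p = 0.914). The hens of the stages overlapped in this gene. Its SE also depends on the spread expected at its level, not on its own hens alone. Among mRNAs with a symbol, STAR came next at ZT20, followed by PSAP, FN1, OAZ1, MMD, CDO1, SPARC, GPX3 and ALAS1. At ZT0 the order after ZP3 was SPARC, OAZ1, RPL36, PSAP, STAR, RPL23, RPS10, RPS24 and APLP2, so that no ribosomal protein gene stood among the 10 highest at ZT20 and 4 did at ZT0. Of these 4 only RPS10 was called lower, a call lost after median ratio scaling. At ZT20 the mean of RPL36, 1420 TPM, lay near that of ALAS1, 1482 TPM. MMD, a membrane protein first found in macrophages, was called higher, with 2145 ± 119 TPM at ZT20 and 426 ± 142 TPM at ZT0 (SD, n = 3 each). OAZ1, which restrains polyamine synthesis, was not called, with 2668 ± 276 TPM at ZT20 and 2329.9 ± 241 TPM at ZT0 (SD, n = 3 each). SPARC, a matrix glycoprotein, averaged 1851 ± 369.8 TPM at ZT20 and 3365 ± 512 TPM at ZT0 (SD, n = 3 each), with a log2 fold change of -0.87 that did not pass the fold threshold.

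Gene lists were described by the count of members called and the median log2 fold change, beside -0.20 for all mRNAs with a symbol, of which 10.9% were called higher and 15.1% lower. No difference between a list and all mRNAs with a symbol was tested. As members and lists were chosen with earlier results of these data known, a high share called in a list is not evidence of an excess. In each list the 4 called members with the largest differences and the members that define it were named by rule, and any further member was named after its values were seen. Of 31 listed genes of steroid synthesis and sterol handling, 18 were paired, of which 1 rose, 3 fell and 14 were not called. Their median log2 fold change was -0.25. The enzymes CYP11A1, CYP17A1 and CYP19A1 could not be paired with an identifier, so steroid synthesis itself is covered only in part. STAR had 16462, 13747 and 10507 TPM at ZT20, against 2133, 2071 and 1011 TPM at ZT0 (limma, log2 fold change 3.02 ± 0.30, adjusted p = 1.73e-05). The mean at ZT20 was 7.81-fold that at ZT0, every ZT20 hen stood above every ZT0 hen, and the ZT12 libraries, at 1453, 1736 and 1403 TPM, lay within the range of ZT0. The qPCR primers that the study lists under the name STAR were not aligned to a sequence here. They are shown each 5′ to 3′:

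STAR forward: agtaccccattgaacacggt

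STAR reverse: atacatggctggggtgttga

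NR5A1 and NR5A2, nuclear receptors that bind steroidogenic gene promoters, were lower at ZT20, where STAR was higher. Their ZT12 libraries, with means of 178 and 333 TPM, already lay below those of ZT0, but these steps were not called. NR5A1, steroidogenic factor 1, had 52.5, 31.6 and 43.1 TPM at ZT20, against 261, 316 and 350.3 TPM at ZT0 (log2 fold change -2.86 ± 0.20, adjusted p = 1.5e-06 by limma). NR5A2, its close relative, had 24.4, 37.98 and 36.8 TPM at ZT20, against 428, 429 and 471 TPM at ZT0 (log2 fold change -3.73 ± 0.17). POR, which passes electrons to microsomal cytochrome P450 enzymes, had 32.1, 30.2 and 17.9 TPM at ZT20, against 136, 157 and 116 TPM at ZT0 (log2 fold change -2.34 ± 0.22). No hen of ZT20 overlapped a hen of ZT0 in any of these genes. DHCR7, the last enzyme of one branch of cholesterol synthesis, averaged 950.4 ± 31.6 TPM at ZT20 and 547 ± 18.6 TPM at ZT0 (SD, n = 3 each), with a log2 fold change of 0.80 below the fold threshold. SOAT1, which esterifies cholesterol, averaged 312 ± 15.7 TPM at ZT20 and 497 ± 21.8 TPM at ZT0 (SD, n = 3 each), with a log2 fold change of -0.67.

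**Figure D3:**
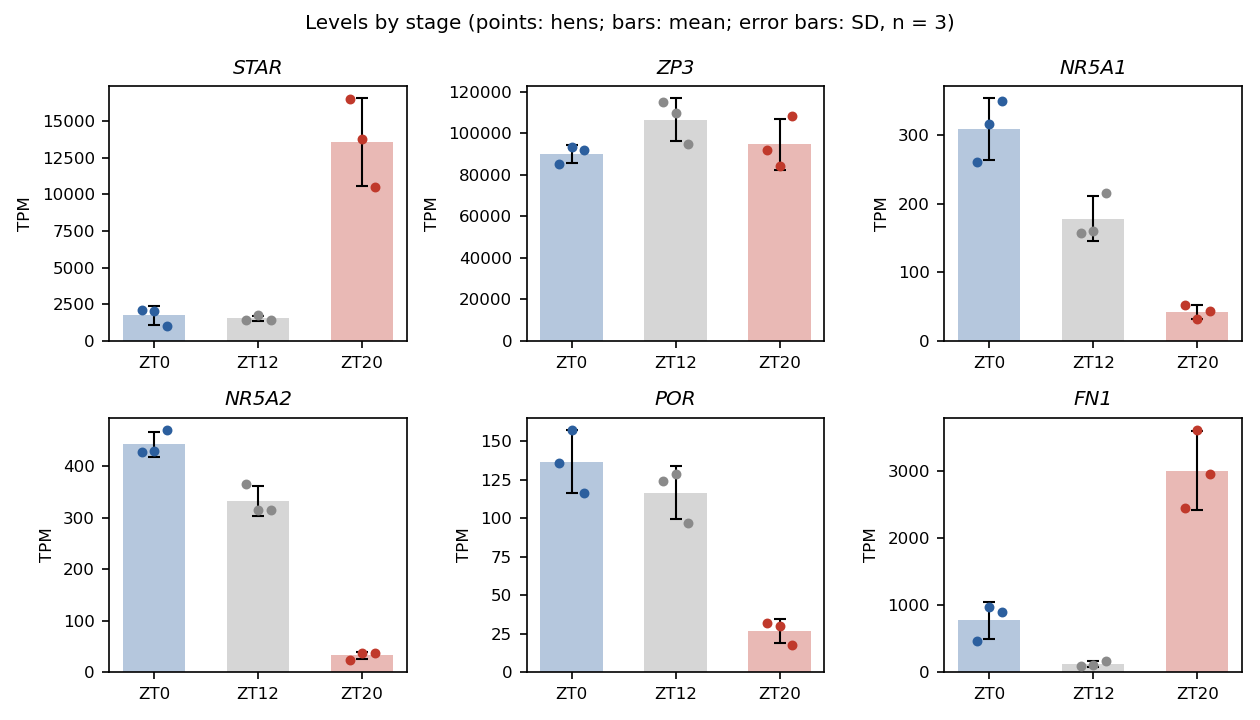
Level in TPM of STAR, ZP3, NR5A1, NR5A2, POR and FN1 at ZT0, ZT12 and ZT20 in time order, with points for hens, bars for the mean and error bars for the SD (n = 3). STAR and FN1 are highest at ZT20 (means of 13572 and 3000.2 TPM), NR5A1, NR5A2 and POR are lowest there, and ZP3 overlaps between ZT20 and ZT0.

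Of 23 genes of glycerolipid, phospholipid and sphingolipid metabolism, 3 rose and 7 fell (43.5% called, against 26.0% of all mRNAs with a symbol), and their median log2 fold change was -0.38. DGKQ, a diacylglycerol kinase that makes phosphatidic acid, had 139, 163 and 141 TPM at ZT20, against 17.1, 20.03 and 22.4 TPM at ZT0 (log2 fold change 2.84 ± 0.20). TAMM41, which makes the cardiolipin precursor in mitochondria, averaged 4.82 ± 1.399 TPM at ZT20 and 24.3 ± 5.56 TPM at ZT0 (SD, n = 3 each, log2 fold change -2.12 ± 0.22). CERS1, a ceramide synthase, averaged 6.80 ± 2.77 TPM at ZT20 and 22.7 ± 4.63 TPM at ZT0 (SD, n = 3 each, log2 fold change -1.64 ± 0.30), and LPCAT2, which acylates lysophosphatidylcholine, averaged 6.43 ± 1.07 TPM at ZT20 and 21.1 ± 5.51 TPM at ZT0 (SD, n = 3 each, log2 fold change -1.55 ± 0.20). Of 20 genes of fatty acid synthesis, activation and oxidation, 2 rose and 1 fell, with a median of 0.06, and 4 rose and 1 fell after median ratio scaling, with a median of 0.30. ACSL3, which activates long-chain fatty acids, had 220.4, 148 and 164 TPM at ZT20, against 38.3, 38.4 and 38.4 TPM at ZT0 (log2 fold change 2.16 ± 0.16). AMACR, a racemase for branched-chain fatty acids, averaged 20.5 ± 3.10 TPM at ZT20 and 8.68 ± 1.39 TPM at ZT0 (SD, n = 3 each, log2 fold change 1.15 ± 0.18).

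HK1 and GPI, which catalyse the first steps of glycolysis, fell. Of 24 genes of glucose use and response to low oxygen, 2 rose and 6 fell (33.3% called, against 26.0% of all mRNAs with a symbol). The log2 fold changes had a median of -0.15 that was 0.08 after median ratio scaling and 0.11 after quantile normalization. HK1, hexokinase 1, had 10.2, 8.61 and 5.47 TPM at ZT20, against 57.3, 68.6 and 67.1 TPM at ZT0 (log2 fold change -2.88 ± 0.19, adjusted p = 9.76e-07 by limma). GPI, the next enzyme of the path, had 84.4, 62.6 and 59.6 TPM at ZT20, against 444, 373 and 349 TPM at ZT0 (log2 fold change -2.49 ± 0.16). ENO1, enolase, averaged 445 ± 172 TPM at ZT20 and 1133 ± 105 TPM at ZT0 (SD, n = 3 each, log2 fold change -1.43 ± 0.28). The calls of PKLR, the liver-type pyruvate kinase, and SLC16A1, a lactate transporter, were lost after median ratio scaling, which left 4 lower, and that of PKLR was also lost without ZT20 replicate 3 (log2 fold change -0.89). Both genes that rose have roles outside glycolysis. STC2, a secreted glycoprotein, had 35.4, 41.4 and 46.7 TPM at ZT20, against 3.44, 3.97 and 11.6 TPM at ZT0 (log2 fold change 2.68 ± 0.34), and P4HA1, which hydroxylates proline in collagen, had 227, 219 and 199 TPM at ZT20, against 86.8, 62.3 and 83.96 TPM at ZT0 (log2 fold change 1.47 ± 0.14). SLC2A1, the glucose transporter GLUT1, had 27.6, 28.3 and 11.7 TPM at ZT20, against 6.50, 16.1 and 27.1 TPM at ZT0, overlapped between the stages and was not called (log2 fold change 0.52 ± 0.46, adjusted p = 0.359 by limma).

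Receptors and regulators of G protein signalling differed in both directions. Of 28 such genes, 5 rose and 6 fell (39.3% called, against 26.0% of all mRNAs with a symbol). The log2 fold changes had a median of -0.16 that was 0.06 after median ratio scaling and 0.03 after quantile normalization. RAMP1, which makes the calcitonin receptor-like receptor respond to CGRP, had 172, 149 and 191 TPM at ZT20, against 9.35, 10.4 and 3.33 TPM at ZT0 (log2 fold change 4.42 ± 0.32). RGS1 and RGS4 both speed the switching off of G proteins. RGS1 had 5.09, 14.1 and 13.6 TPM at ZT20 and was listed at 0 in every ZT0 library, and it is also one of the leukocyte markers, of which it alone was called. RGS4 had 11.1, 8.35 and 10.1 TPM at ZT20, against 0.0267, 0.0708 and 0.367 TPM at ZT0 (log2 fold change 3.23 ± 0.16). HCN2, a channel opened by cyclic nucleotides, had 15.9, 11.2 and 9.59 TPM at ZT20, against 0.199, 0.161 and 0.379 TPM at ZT0 (log2 fold change 3.38 ± 0.18). ADCYAP1R1, the receptor of the peptide PACAP, fell with 3.96, 1.72 and 3.20 TPM at ZT20, against 35.01, 35.2 and 49.4 TPM at ZT0 (log2 fold change -3.39 ± 0.25, adjusted p = 2.01e-06 by limma). The call of RIC8A, an exchange factor for G protein alpha subunits, was lost after median ratio scaling, after quantile normalization and without ZT20 replicate 3 (log2 fold change -0.998).

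Among growth factor, cytokine and kinase genes, 5 of 33 rose and 7 fell (36.4% called, against 26.0% of all mRNAs with a symbol). The log2 fold changes had a median of -0.09 that was 0.15 after median ratio scaling and 0.08 after quantile normalization. Besides SRC, MAP2K6 and PLCG1, SH2B3, an adaptor that restrains cytokine receptor signalling, fell with 0.622 ± 0.364 TPM at ZT20 and 13.5 ± 2.19 TPM at ZT0 (SD, n = 3 each, log2 fold change -3.17 ± 0.25). The genes that rose held a kinase, a receptor and 3 ligands. PRKCZ, an atypical protein kinase C, averaged 24.7 ± 3.75 TPM at ZT20 and 2.36 ± 0.355 TPM at ZT0 (SD, n = 3 each, log2 fold change 2.94 ± 0.20). LIFR, the receptor of leukemia inhibitory factor, averaged 72.5 ± 6.04 TPM at ZT20 and 16.9 ± 1.92 TPM at ZT0 (SD, n = 3 each, log2 fold change 2.04 ± 0.19), and the ligands FGF18, PDGFA and HBEGF had log2 fold changes of 1.57, 1.42 and 1.21. The call of HBEGF was lost without ZT20 replicate 1 (log2 fold change 0.80). NRG4, a ligand of the EGF receptor family, fell (log2 fold change -2.22 ± 0.21). PRLR, the prolactin receptor, had 38.9, 49.4 and 56.2 TPM at ZT20, against 33.3, 33.9 and 14.1 TPM at ZT0. Its log2 fold change of 0.89 was not called, but it was called after median ratio scaling and quantile normalization, without ZT0 replicate 1 (log2 fold change 1.08) and without ZT0 replicate 2 (1.10). STAT5A, which transmits prolactin signals, was called lower (log2 fold change -1.02 ± 0.20). It was not called after any of the 3 other scalings, without ZT0 replicate 3 (-0.86) or without ZT20 replicate 3 (-0.90).

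Of 24 genes of inflammation and ovulation, 4 rose and 2 fell, a share of 25.0% called that is near the 26.0% of all mRNAs with a symbol, and the log2 fold changes had a median of -0.13 that was 0.04 after median ratio scaling and 0.03 after quantile normalization. SIRT1, a deacetylase, had 61.9, 70.3 and 80.1 TPM at ZT20, against 9.65, 9.74 and 11.8 TPM at ZT0 (log2 fold change 2.65 ± 0.16, adjusted p = 6e-07 by limma). GAS2, which binds actin and microtubules, had 207, 288 and 292 TPM at ZT20, against 77.02, 70.8 and 51.9 TPM at ZT0 (log2 fold change 1.97 ± 0.18). PTGS1, the constitutive cyclooxygenase of prostaglandin synthesis, had 3.50, 3.31 and 3.87 TPM at ZT20, against 0.893, 0.620 and 1.25 TPM at ZT0 (log2 fold change 1.26 ± 0.16). TNFRSF10B, a receptor of the death ligand TRAIL, averaged 17.4 ± 2.70 TPM at ZT20 and 7.38 ± 1.60 TPM at ZT0 (SD, n = 3 each, log2 fold change 1.14 ± 0.24). Its call was lost without ZT0 replicate 3 (log2 fold change 0.97). TRAF4 fell, as described, and TNIP1, an inhibitor of NF-kappa B signalling, was called lower (log2 fold change -1.02 ± 0.21), but not after median ratio scaling, without ZT0 replicate 2 (-0.90) or without ZT20 replicate 3 (-0.76).

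The extracellular matrix held more rises than falls, at 7 and 4 of 29 genes (37.9% called, against 26.0% of all mRNAs with a symbol). Their median log2 fold change was 0.21. FN1, fibronectin, had 2444, 3609 and 2947 TPM at ZT20, against 460.3, 970.3 and 896 TPM at ZT0 (log2 fold change 2.01 ± 0.31, adjusted p = 0.000323 by limma), while its ZT12 libraries averaged 127 TPM. PCOLCE2, which enhances the processing of procollagen, had 78.4, 42.5 and 68.1 TPM at ZT20, against 4.74, 6.69 and 3.56 TPM at ZT0 (log2 fold change 3.40 ± 0.33). HS6ST1, named above, and NDST1 both modify heparan sulfate, and they moved in opposite directions. NDST1 had 7.65, 7.59 and 7.29 TPM at ZT20, against 74.7, 64.01 and 54.7 TPM at ZT0 (log2 fold change -2.93 ± 0.21). TNN, tenascin N, fell with 10.4 ± 0.246 TPM at ZT20 and 55.4 ± 13.0 TPM at ZT0 (SD, n = 3 each, log2 fold change -2.28 ± 0.20), and THSD4, a protein of microfibrils, rose with 8.39 ± 0.559 TPM at ZT20 and 1.25 ± 0.538 TPM at ZT0 (SD, n = 3 each, log2 fold change 2.09 ± 0.18). LAMB3, a laminin chain, fell (log2 fold change -1.16 ± 0.19).

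Proteases of the extracellular space and their inhibitors were called in 12 of 19 cases (63.2%, against 26.0% of all mRNAs with a symbol), with 6 higher, 6 lower and a median log2 fold change of 0.60. SERPINF1, a secreted serpin known as PEDF, had 113, 131 and 161 TPM at ZT20, against 15.3, 15.3 and 11.5 TPM at ZT0 (log2 fold change 3.17 ± 0.20). CPAMD8, of the alpha-2-macroglobulin family, had 4.39, 9.65 and 6.57 TPM at ZT20, against 0.138, 0.137 and 0.138 TPM at ZT0 (log2 fold change 2.74 ± 0.22), and ADAM19 had 5.43, 4.34 and 3.55 TPM at ZT20, against 0.0413, 0.0209 and 0.0423 TPM at ZT0 (log2 fold change 2.38 ± 0.14). PLAU, the urokinase-type plasminogen activator, fell and varied widely among the ZT0 hens, with 1.19, 0.501 and 0.288 TPM at ZT20, against 30.5, 20.5 and 3.32 TPM at ZT0 (log2 fold change -3.14 ± 0.60, adjusted p = 0.00146 by limma). PLAT, the tissue-type activator, averaged 1.57 ± 0.0761 TPM at ZT20 and 2.81 ± 0.134 TPM at ZT0 (SD, n = 3 each) and was not called (log2 fold change -0.57 ± 0.14). ADAM9 and ADAM10, which shed membrane proteins, both fell, with log2 fold changes of -2.29 and -1.60. The call of TIMP4, an inhibitor of metalloproteinases, was lost after median ratio scaling, which gave 8 higher and 5 lower members.

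Of 38 genes of the actin cytoskeleton and cell adhesion, 4 rose and 10 fell (36.8% called, against 26.0% of all mRNAs with a symbol). Their median log2 fold change was -0.44. RHOC led the fall. CLDN5, a tight junction protein that is also an endothelial marker, had 4.16, 5.02 and 5.15 TPM at ZT20, against 42.3, 24.5 and 74.5 TPM at ZT0 (log2 fold change -2.92 ± 0.32). Of the other paired endothelial markers, S1PR1 was called lower as well and SH2D3C higher. The part of endothelial cells in the fall of CLDN5 was not tested. MYO1E, an unconventional myosin, had 1.21, 0.746 and 0.764 TPM at ZT20, against 8.99, 12.04 and 9.32 TPM at ZT0 (log2 fold change -2.54 ± 0.21), and VCL, vinculin, which links adhesions to actin, had 5.54, 6.76 and 3.50 TPM at ZT20, against 31.8, 26.4 and 45.1 TPM at ZT0 (log2 fold change -2.50 ± 0.24). TLN2, CTNNA1 and FHOD1, all partners of actin at adhesions or stress fibres, fell with log2 fold changes of -1.69, -1.50 and -1.71. PLS1, which bundles actin, rose with 47.6, 31.1 and 39.2 TPM at ZT20, against 4.03, 5.16 and 8.21 TPM at ZT0 (log2 fold change 2.59 ± 0.24). JAM3, an adhesion molecule of cell junctions, rose (log2 fold change 1.68 ± 0.14).

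Developmental signals moved both ways, with 6 of 26 genes higher and 7 lower (50.0% called, against 26.0% of all mRNAs with a symbol). Their median log2 fold change was -0.37. Besides TSKU and WNT7A, DRAXIN, a guidance protein that inhibits Wnt signalling, had 120.2, 65.5 and 60.8 TPM at ZT20, against 4.22, 6.73 and 20.03 TPM at ZT0 (log2 fold change 3.07 ± 0.48). SKI, a repressor of TGF-beta signalling, had 265, 278 and 214 TPM at ZT20, against 37.5, 43.1 and 52.2 TPM at ZT0 (log2 fold change 2.49 ± 0.16). NOG, noggin, which binds and inhibits BMPs, had 2.12, 1.99 and 3.11 TPM at ZT20, against 24.2, 30.7 and 40.8 TPM at ZT0 (log2 fold change -3.25 ± 0.22), and SEMA6A, a transmembrane semaphorin, had 11.02, 10.4 and 8.32 TPM at ZT20, against 93.4, 105 and 111 TPM at ZT0 (log2 fold change -3.26 ± 0.13). FRZB, a secreted Wnt inhibitor, was abundant at both stages, at 821 ± 74.1 TPM at ZT20 and 324 ± 73.5 TPM at ZT0 (SD, n = 3 each), and rose (log2 fold change 1.36 ± 0.35). NOTCH2 fell (log2 fold change -1.40 ± 0.21).

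Genes of the cell cycle and DNA replication fell in 8 of 32 cases and rose in 2. The share called was 31.25%, against 26.0% of all mRNAs with a symbol, and their median log2 fold change was -0.12. SKP2 led the fall. CDC45, a part of the replicative helicase, had 0.586, 0.651 and 0.755 TPM at ZT20, against 14.9, 8.50 and 6.76 TPM at ZT0 (log2 fold change -2.67 ± 0.31). SKA2, of the kinetochore, averaged 5.90 ± 1.01 TPM at ZT20 and 37.4 ± 3.34 TPM at ZT0 (SD, n = 3 each, log2 fold change -2.48 ± 0.15). The cyclins CCND3 and CCNE1 and the replication gene TOP2A, topoisomerase II alpha, fell with log2 fold changes of -2.14, -1.77 and -1.67. SHCBP1 and ORC6, a part of the origin recognition complex, rose, the second with 55.6 ± 15.9 TPM at ZT20 and 12.9 ± 3.07 TPM at ZT0 (SD, n = 3 each, log2 fold change 2.01 ± 0.23). CCNB1, the mitotic cyclin B1, averaged 10.03 ± 2.25 TPM at ZT20 and 20.1 ± 3.04 TPM at ZT0 (SD, n = 3 each) and was not called (log2 fold change -0.94 ± 0.20, adjusted p = 0.00277 by limma), as its log2 fold change was not past 1, but it was called with a pseudocount of 0.1, without ZT0 replicate 2 (-1.07) and without ZT20 replicate 3 (-1.10). CDK1, its kinase, averaged 2.30 ± 0.315 TPM at ZT20 and 1.79 ± 0.929 TPM at ZT0 (SD, n = 3 each) and was not called (log2 fold change 0.30 ± 0.26).

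Of 24 genes of folding in the endoplasmic reticulum, 1 rose and none fell by limma, although 2 were higher and 6 lower at an unadjusted p under 0.05. The gene that rose was TXNDC11, a thioredoxin domain protein, at 114 ± 31.8 TPM at ZT20 and 17.5 ± 3.27 TPM at ZT0 (SD, n = 3 each, log2 fold change 2.61 ± 0.22). HSPA5, the chaperone BiP, averaged 1311 ± 204 TPM at ZT20 and 1091 ± 131 TPM at ZT0 (SD, n = 3 each) and was not called (log2 fold change 0.26 ± 0.16). None of 22 mitochondrial genes of respiration and import was called by limma, although 2 were higher and 8 lower at an unadjusted p under 0.05. Their median log2 fold change was -0.30, and quantile normalization gave 1 lower call. Of 18 cytosolic ribosomal proteins, RPS10 was called lower, at 762 ± 275 TPM at ZT20 and 1467 ± 93.2 TPM at ZT0 (SD, n = 3 each), with a log2 fold change of -1.01. This call was lost after median ratio scaling and after rescaling without the 10 highest transcripts (-0.989). It was also lost without any 1 of ZT0 replicate 1 (-0.98), ZT0 replicate 2 (-0.98) and ZT20 replicate 3 (-0.73). Their median was -0.45 with TPM and -0.21 after median ratio scaling, against -0.20 and 0.01 for all mRNAs with a symbol. Of 26 lysosome and autophagy genes, 2 rose and 2 fell, and 4 rose and 2 fell after median ratio scaling. ULK1, the kinase that starts autophagy, had 250.0, 212 and 168 TPM at ZT20, against 13.9, 16.3 and 26.95 TPM at ZT0 (log2 fold change 3.43 ± 0.23), whereas ULK2, its relative, had 20.6, 27.1 and 25.99 TPM at ZT20, against 99.2, 90.6 and 85.8 TPM at ZT0 (log2 fold change -1.87 ± 0.14). VMP1, which acts in the formation of autophagosomes, rose (log2 fold change 2.20 ± 0.23) and WIPI2, an effector of the same path, fell (log2 fold change -1.25 ± 0.26), though not without ZT20 replicate 3 (-0.87). PSAP, the precursor of the saposins of lysosomes, averaged 3292 ± 49.3 TPM at ZT20 and 1903 ± 268 TPM at ZT0 (SD, n = 3 each) and was not called with TPM (log2 fold change 0.80 ± 0.17), but was called after median ratio scaling.

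Of 18 listed genes of detoxification, heme synthesis and antioxidant defence, 17 were tested, of which 3 rose and 4 fell. The share called was 41.2%, against 26.0% of all mRNAs with a symbol, and their median log2 fold change was -0.37. CDO1 led the rise. ALAS1, the first enzyme of heme synthesis, had 1469.7, 1369.6 and 1606 TPM at ZT20, against 363, 335 and 80.6 TPM at ZT0 (log2 fold change 2.78 ± 0.48, adjusted p = 0.000771 by limma), with 1 ZT0 hen far below the others. GPX4, which reduces lipid peroxides, had 212, 136 and 124 TPM at ZT20, against 265, 474 and 424 TPM at ZT0 (log2 fold change -1.29 ± 0.28). AIFM2, which protects membrane lipids from peroxidation, averaged 8.29 ± 1.52 TPM at ZT20 and 24.4 ± 2.78 TPM at ZT0 (SD, n = 3 each, log2 fold change -1.46 ± 0.16). SLC25A37, the mitochondrial iron importer, averaged 4.86 ± 0.887 TPM at ZT20 and 16.2 ± 3.49 TPM at ZT0 (SD, n = 3 each, log2 fold change -1.55 ± 0.25). CYP1A1, a cytochrome P450 of xenobiotic metabolism, rose (log2 fold change 1.46 ± 0.27).

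Of 39 solute carriers, 6 rose and 9 fell with TPM (38.5% called, against 26.0% of all mRNAs with a symbol). After median ratio scaling 11 rose and 6 fell, so that the balance of this group turned with the scaling. Besides SLC6A17, SLC43A2, a transporter of large neutral amino acids, averaged 20.8 ± 7.21 TPM at ZT20 and 3.51 ± 2.28 TPM at ZT0 (SD, n = 3 each, log2 fold change 2.33 ± 0.35). SLC23A2, which carries vitamin C, averaged 58.1 ± 14.6 TPM at ZT20 and 13.7 ± 0.436 TPM at ZT0 (SD, n = 3 each, log2 fold change 1.98 ± 0.18). SLC26A2, a sulfate transporter, fell (log2 fold change -1.92 ± 0.17). Of 38 ion channel genes 8 rose and 9 fell (44.7% called, against 26.0% of all mRNAs with a symbol), and their median log2 fold change was -0.18. HVCN1 and TTYH3 led the rise and KCNJ5 the fall. CHRNB4, a nicotinic receptor subunit, had 12.9, 10.1 and 14.95 TPM at ZT20, against 0.0244, 0.0237 and 0.0476 TPM at ZT0 (log2 fold change 3.71 ± 0.15), and its partner subunit CHRNA5 also rose (log2 fold change 2.17 ± 0.22), whereas CHRNA7 fell, at 50.7 ± 14.98 TPM at ZT20 and 162 ± 41.8 TPM at ZT0 (SD, n = 3 each, log2 fold change -1.67 ± 0.24). MCU, the mitochondrial calcium uniporter, had 237, 169.8 and 256 TPM at ZT20, against 34.9, 58.9 and 33.99 TPM at ZT0 (log2 fold change 2.37 ± 0.24). Potassium channel genes that fell included KCNT1 and KCNA2, with log2 fold changes of -2.84 and -2.55, and CACNA1H, a T-type calcium channel, fell as well (log2 fold change -2.19 ± 0.26).

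Only 6 of 17 clock genes listed could be paired with an identifier, so the clock is covered in part. RORA, a nuclear receptor that activates the clock gene BMAL1, had 3.41, 2.47 and 3.39 TPM at ZT20, against 16.1, 17.8 and 29.4 TPM at ZT0 (log2 fold change -2.39 ± 0.25, adjusted p = 2.55e-05 by limma). HLF, a clock-controlled transcription factor, had 46.03, 45.4 and 37.02 TPM at ZT20, against 11.4, 17.1 and 30.96 TPM at ZT0 (log2 fold change 1.18 ± 0.29), and its ZT20 hens stood above every ZT0 hen, but it was not called without ZT0 replicate 1 (0.86). PER3, a period gene, averaged 1.18 ± 0.0904 TPM at ZT20 and 2.70 ± 0.838 TPM at ZT0 (SD, n = 3 each) and was not called (log2 fold change -0.74 ± 0.21), but was called with a pseudocount of 0.1 (-1.09). As the hens of both stages were killed at different clock hours, these differences and those of the ovulatory cycle cannot be told apart.

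**Figure D4:**
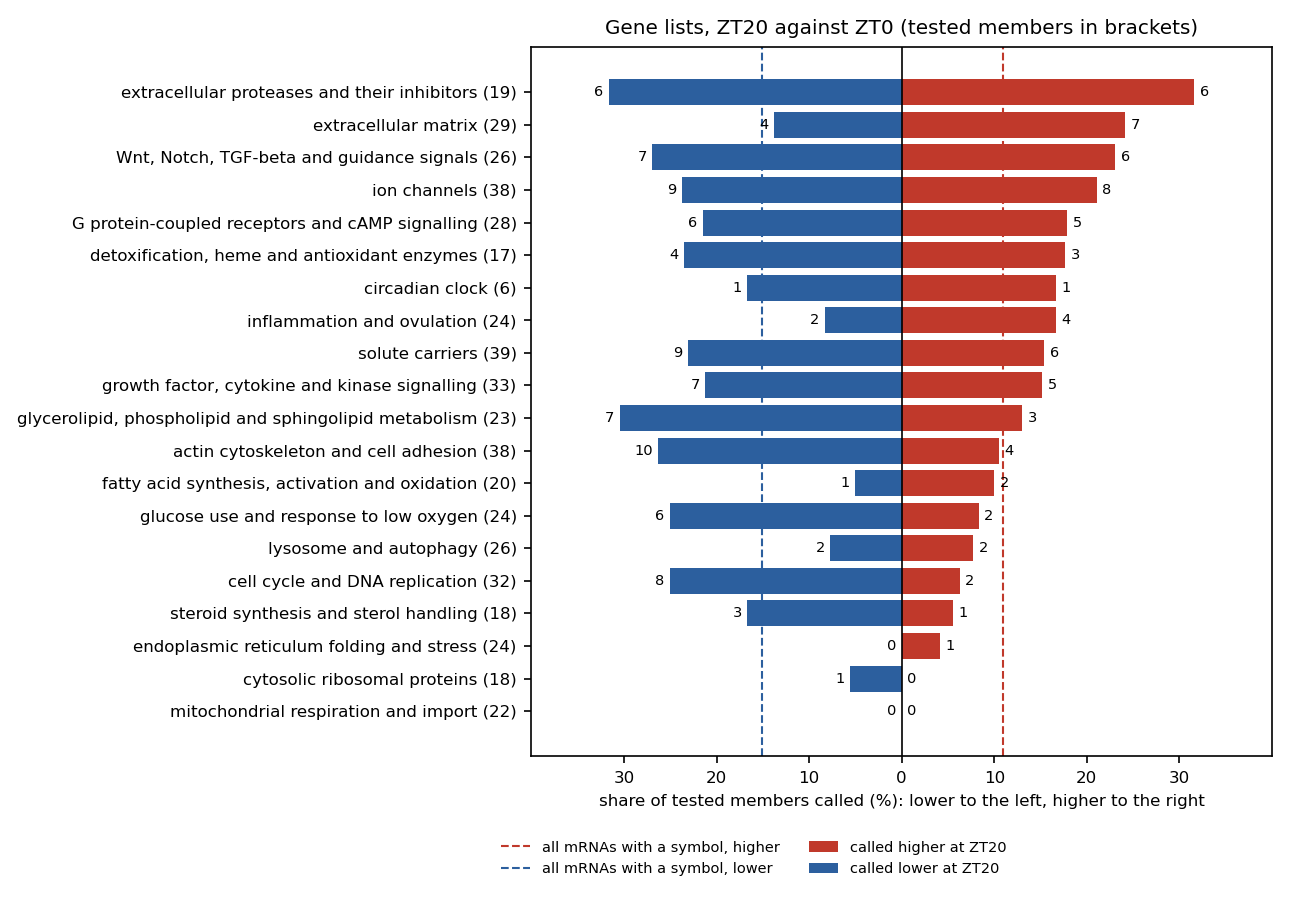
Share of the tested members of 20 gene lists called higher (red, to the right) or lower (blue, to the left) at ZT20, in percent, with the number of genes at each bar and the number tested in brackets. Dashed lines give the share among all mRNAs with a symbol (10.9% higher, 15.1% lower), and extracellular proteases show the largest share in both directions, with 6 of 19 genes each way. The lists were chosen with earlier results of these data known.

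Differences between the stages were also found among lncRNAs. Of 7414 tested, 1355 (18.3%) were called, 667 (9.00%) higher and 688 (9.28%) lower at ZT20. Their log2 fold changes had a median of -0.02, and median ratio scaling gave 705 (9.51%) higher and 582 (7.85%) lower. The hens of the stages did not overlap for 3433 lncRNAs (46.3%). Of the lncRNAs, 3365 had a mean under 1 TPM over both stages, and 3.39% of these were called, while 1575 mRNAs lay at that level, of which 6.16% were called. Between 10 and 100 TPM, 34.7% of 844 lncRNAs and 28.7% of 5974 mRNAs were called, and at 100 TPM or more 46.9% of 113 lncRNAs and 36.0% of 1216 mRNAs. These shares describe the tables and were not tested against each other. Past an absolute log2 fold change of 2 were 245 higher and 212 lower lncRNAs.

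The largest rise of a lncRNA was that of G6488, with 205, 209 and 238 TPM at ZT20, against 0, 4.58 and 0.435 TPM at ZT0 (log2 fold change 6.77 ± 0.59, adjusted p = 6.76e-06 by limma). It is listed as intronic at chr2:1820258-1820756 of Gallus_gallus version 6.0. G11313 had 171, 238 and 231 TPM at ZT20, against 1.69, 1.10 and 0.571 TPM at ZT0 (log2 fold change 6.68 ± 0.34) and G11312 had 81.1, 93.1 and 101 TPM at ZT20, against 1.15, 1.06 and 1.31 TPM at ZT0 (log2 fold change 5.41 ± 0.28). G6179, intronic at chr19:5088661-5101281, had 65.9, 111 and 113 TPM at ZT20 and was listed at 0 in all libraries of ZT0 and ZT12. No fold is given for it. G3989 had 106, 152 and 251 TPM at ZT20, against 0.847, 1.46 and 1.49 TPM at ZT0 (log2 fold change 6.16 ± 0.35), and ENSGALG00000047636 had 73.7, 81.4 and 293 TPM at ZT20, against 0.687, 0.642 and 3.83 TPM at ZT0 (log2 fold change 5.68 ± 0.54), with 1 ZT20 hen far above the others.

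G13736 fell most. It was listed at 0 in 2 of the ZT20 libraries, with 0, 0 and 0.767 TPM at ZT20, against 229, 167 and 167 TPM at ZT0 (log2 fold change -7.27 ± 0.59, adjusted p = 3.76e-06 by limma). G18711 had 0, 4.17 and 5.18 TPM at ZT20, against 126, 157 and 217 TPM at ZT0 (log2 fold change -5.69 ± 0.67), G18066 had 3.05, 7.001 and 7.42 TPM at ZT20, against 277, 274 and 378 TPM at ZT0 (log2 fold change -5.56 ± 0.50), and G14758 had 2.96, 1.14 and 1.98 TPM at ZT20, against 112, 120.4 and 119 TPM at ZT0 (log2 fold change -5.33 ± 0.59). In each of these genes the ZT20 hens stood far below the ZT0 hens. G15775 had 0, 0.707 and 0.632 TPM at ZT20, against 47.1, 49.9 and 58.3 TPM at ZT0 (log2 fold change -5.22 ± 0.49), and G18912 had 0.900, 1.94 and 1.42 TPM at ZT20, against 67.4, 70.6 and 113 TPM at ZT0 (log2 fold change -5.11 ± 0.46). Of all lncRNAs, 22 were above 10 TPM in every ZT20 library and under 1 TPM in every ZT0 library, and 15 were under 1 TPM in every ZT20 library and above 10 TPM in every ZT0 library. The strand setting of the quantification is not given in the sources used here, so reads of a lncRNA and of a gene that overlaps it cannot be told apart.

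G13560 is a lncRNA that the study followed further. The qPCR primers that the study lists under this name were likewise not aligned, and are shown each 5′ to 3′:

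G13560 forward: atggaagtcagaaggtgcca

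G13560 reverse: caactctgagcactgcactg

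G13560 had 292, 246 and 218 TPM at ZT20, against 96.8, 86.8 and 77.6 TPM at ZT0 (limma, log2 fold change 1.52 ± 0.43, adjusted p = 0.0186). All ZT20 hens stood above all ZT0 hens. The ZT12 libraries, whose spread enters the SE, had 57.1, 46.6 and 16.5 TPM. G13560 was also called in the fit of the 6 libraries of ZT20 and ZT0 alone. It was called under 17 of 21 alternative settings and not in the fits without ZT20 replicate 1, ZT20 replicate 2, ZT0 replicate 2 or ZT0 replicate 3, in which its log2 fold change was 1.41, 1.53, 1.52 and 1.44 and its adjusted p 0.0672, 0.053, 0.0552 and 0.059.

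**Figure D5:**
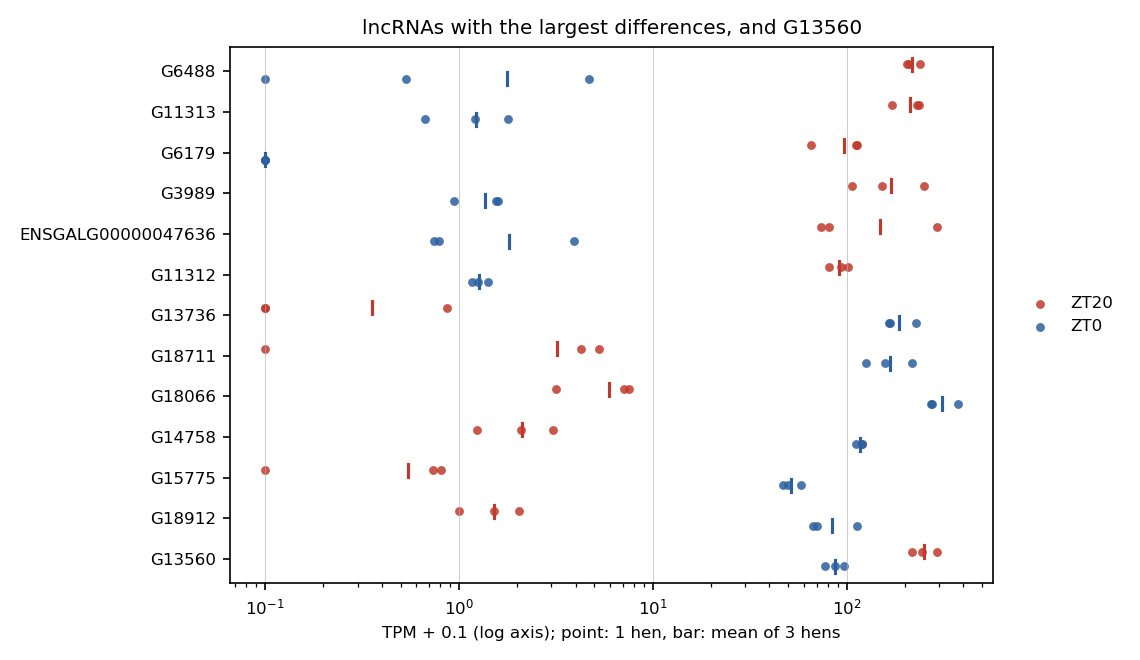
Level of the 12 lncRNAs with the largest differences and of G13560 in each hen, as TPM + 0.1 on a log axis, with ZT20 in red above ZT0 in blue and a bar at the mean of 3 hens. Points at 0.1 are libraries listed at 0, such as all 3 ZT0 libraries of G6179, and the 3 ZT20 libraries of G13560 lie between 218 and 292 TPM.

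In the part of the transcript list used here, 1220 tested lncRNAs had a position. Of these, 231 were called, and among all tested lncRNAs 18.3% were called. Of the 231, 19 had a positioned mRNA with a symbol within 10 kb. Among all mRNAs with a symbol 26.0% were called. The nearest mRNA with a symbol was called in 7 of the 19 pairs, in the same direction in 6 and in the opposite direction in 1. mRNAs with no symbol were not searched and may lie nearer. Whether directions match more often than in other pairs was not tested. Both fell in 5 pairs. In 1 of these, G9899 with PPM1J, the call of G9899 (log2 fold change -1.05) was lost under 3 other scalings (-0.88 after median ratio scaling), without ZT20 replicate 1 (-0.94), without ZT20 replicate 2 (-0.97) and under the other reading of the lncRNA values (-0.65). G9266, at chr23:5269094-5270803, is listed as antisense to an exon, and the nearest mRNA with a symbol, KIAA1522, lies 770 bp away. G9266 had 1.86, 2.66 and 4.48 TPM at ZT20, against 123, 130.3 and 116 TPM at ZT0 (log2 fold change -5.01 ± 0.34), and KIAA1522 averaged 4.29 ± 2.28 TPM at ZT20 and 20.9 ± 5.49 TPM at ZT0 (SD, n = 3 each, log2 fold change -2.10 ± 0.31). G9144 overlaps TAF12, a subunit of the TFIID transcription factor. G9144 had 2.56, 1.85 and 3.42 TPM at ZT20, against 39.4, 33.7 and 28.4 TPM at ZT0 (log2 fold change -3.28 ± 0.38), and TAF12 had 29.4, 29.3 and 14.5 TPM at ZT20, against 81.96, 73.6 and 73.03 TPM at ZT0 (log2 fold change -1.67 ± 0.23). G6482, listed as intronic, overlaps ADCYAP1R1 and is listed at 0 in every ZT20 library, against 8.12, 2.48 and 6.44 TPM at ZT0. G6127, also listed as intronic, overlaps CAMKK1, a kinase that activates calcium and calmodulin-dependent kinases, and both rose, G6127 at 17.7 ± 5.18 TPM at ZT20 and 2.86 ± 0.743 TPM at ZT0 (SD, n = 3 each, log2 fold change 2.25 ± 0.37) and CAMKK1 at 15.2 ± 1.99 TPM at ZT20 and 2.85 ± 3.16 TPM at ZT0 (SD, n = 3 each, log2 fold change 2.36 ± 0.43). G6303, named after its values were seen because it is the single pair that moved in opposite directions, lies within VMP1 and fell, at 1.14 ± 0.369 TPM at ZT20 and 7.34 ± 0.630 TPM at ZT0 (SD, n = 3 each, log2 fold change -1.97 ± 0.36), while VMP1 rose, at 194 ± 41.5 TPM at ZT20 and 42.5 ± 15.2 TPM at ZT0 (SD, n = 3 each). G9144, G6482, G6127, G6303 and G9899 overlap the mRNA they are paired with, and the part of shared reads in these pairs was not tested.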

How the data were processed

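RNA of F1 granulosa cells was analysed from 2 tables, 1 of mRNAs and 1 of lncRNAs, in which all columns were mapped to a library by its label. Per the study's methods, the authors aligned reads with the program STAR version 2.6.0c to Gallus_gallus version 6.0, assembled lncRNAs with Cufflinks (version 2.2.1 per the submitters' processing notes), kept transcripts with no coding potential and quantified TPM with Kallisto. The authors deposited log2 values, from which TPM was recovered. For mRNAs the deposited scale was taken as log2(TPM + 1) and for lncRNAs as log2(TPM + 2), as was inferred from the table, because the TPM of both tables then sum to nearly the full TPM total in each library. Fold changes and p-values of the authors in supplementary lists were not used.

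Transcripts above 0.1 TPM in at least 1 of 9 libraries were kept. Each kind of transcript had its own fit in limma 3.58.1 (R 4.3.3), on log2(TPM + 1), with 3 stage means, a mean-variance trend and 6 residual degrees of freedom. Adjustment by Benjamini-Hochberg ran over all tested transcripts of the kind. No counts were at hand for the count test of the authors. The p-values rest on the spread between hens within all 3 stages. limma draws the spread of each transcript toward that of transcripts of similar level. An SE or p-value thus does not measure the spread of that transcript's own hens alone. The fit was tested on simulated data. An exact permutation test of 3 against 3 hens cannot give a p under 0.1 and was not used. Summaries and plots were made with Python 3.11.15, pandas 2.3.3 and matplotlib 3.10.9.

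Symbols and positions came from the part of the study's transcript list used here. Named were the 14 mRNAs with a symbol, 6 lncRNAs and 2 mRNAs with no symbol with the largest log2 fold change each way among called transcripts whose stages did not overlap, G13560, up to 4 called members and the defining members of each of 20 gene lists, the 10 highest mRNAs of each stage, up to 5 transcripts near 0 at one stage only, and up to 4 pairs of a lncRNA and an mRNA. The members and lists were chosen with earlier results of these data known. Replicate numbers are only labels. Alternatives were another pseudocount, 2 other filters, 3 other scalings, fits of the 6 libraries alone, without the trend, without the fold change threshold, with a replicate block and of both kinds together, another reading of the lncRNA values, and each library left out in turn. Promoters, proteins and lncRNA sequences were not analysed here. The values of 1 gene that the report counts are not reported here.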

Additional observations from a re-analysis of the deposited data

How the results depend on the processing

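Between 3293 and 4431 mRNAs were called under every alternative but one, against 3512 in the fit described. Without the fold change threshold 6676 mRNAs were called. Leaving out 1 library at a time gave 3410 to 3657. For lncRNAs, against 1355, a pseudocount of 0.1 in place of 1 gave 2104 calls and no fold change threshold gave 2218. Leaving out 1 library at a time gave 1179 to 1425, the lowest without ZT20 replicate 3 and the highest without ZT12 replicate 3. For both of these libraries the study lists a higher GC content than for the others of the same stage. The part of GC content in the calls was not tested. Some calls named above were lost without ZT20 replicate 3, and some without other libraries. The lncRNA median ratio of ZT12 replicate 3 was 0.443, against 0.982 and 0.835 in the other ZT12 libraries. Reading the deposited lncRNA values as log2(TPM + 1) plus 1 gave 980 calls. With the replicate block 3512 mRNAs and 1313 lncRNAs were called. No hen was sampled at both stages, so the numbers do not pair samples of a hen. Deviations of hens with the same number correlated across mRNAs with r of -0.07, 0.04 and -0.02 and across lncRNAs with -0.01, -0.03 and -0.09. For hens with different numbers r ranged from -0.07 to 0.08 across mRNAs and from -0.09 to 0.11 across lncRNAs. Whether hens with the same number were handled together was not tested. The log2 fold change of 2 transcripts that were not called turned in direction. That of ZP3 was -0.034 without ZT20 replicate 3, 0.15 without ZT20 replicate 2 and 0.31 after median ratio scaling. That of CDK1 was -0.012 without ZT0 replicate 2 and 0.48 without ZT0 replicate 3. Of 218 transcripts followed under all alternatives, 181 kept their direction and their call throughout, 27 lost their call under at least 1 alternative, and 8 that were not called were called under at least 1. The 218 were chosen largely by their calls or the size of their differences, so these counts do not describe all transcripts. Leaving out the fold change threshold cannot lose a call. The causes were not tested. The unknown number of reads per transcript limits values near 0 most, and the pseudocount sets the log2 fold change of transcripts listed at 0.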

Other observations

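Some lncRNAs with close identifiers were low at one stage together, and no rule set beforehand chose these pairs. Of these, G6488 reached 4.58 TPM in ZT0 replicate 2. G6490 had 30.9, 47.9 and 25.3 TPM at ZT20, against 0.0763, 0.221 and 0.148 TPM at ZT0, beside the rise of G6488. G13734 was listed at 0 in all 3 ZT20 libraries, against 28.5, 37.1 and 17.7 TPM at ZT0, beside the fall of G13736. G6490 is listed as intronic at chr2:1844910-1846008 and G6488 as intronic at chr2:1820258-1820756, so they lie close together without overlap. No position was at hand for G13734 or G13736 in the part of the transcript list used here. Whether the transcripts of each set are made together was not tested. Of the lncRNAs absent or nearly so at ZT0, ENSGALG00000049177 had 31.3, 40.2 and 42.9 TPM at ZT20, against 0.06, 0 and 0.69 TPM at ZT0, G15359 had 37.4, 48.3 and 24.8 TPM at ZT20, against 0.193, 0.377 and 0 TPM at ZT0, and G17148 had 21.96, 46.9 and 25.05 TPM at ZT20, against 0.105, 0.38 and 0.826 TPM at ZT0. In the opposite direction, G18197 had 0.159, 0.567 and 0.33 TPM at ZT20, against 22.1, 21.6 and 28.9 TPM at ZT0, and ENSGALG00000049769 had 0.0696, 0 and 0.0399 TPM at ZT20, against 20.3, 26.4 and 17.6 TPM at ZT0. All of them were called, which the rule that chose them by level made nearly certain.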
